A study of Bos grunniens with 3 samples.

Results

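*KRT85*, *KRT35* and *KAP11.1* are genes of the hair cortex, the layer that gives the hair shaft its bulk and strength. They were taken by symbol from the gene list of the count tables, where each symbol has 1 row, and make up 3 of 26924 genes. The identifiers are ENSBGRG00000000839 for *KRT85*, ENSBGRG00000012767 for *KRT35* and ENSBGRG00000000111 for *KAP11.1*.

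Hair keratins are intermediate filament proteins that pair as 1 type I and 1 type II chain. *KRT85* encodes a type II chain and *KRT35* a type I chain, and both are known from human and mouse hair as keratins that appear early, in the matrix and the lower cortex just above the dividing cells of the bulb. Keratin-associated proteins fill the space between the filaments and are cross-linked to them as the shaft hardens. *KAP11.1*, the gene of one of these proteins, is known to be expressed in the cortex above the first keratins. In the hair cycle the shaft is made in anagen, the bulb regresses in catagen, and the follicle rests in telogen with a finished club hair.

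The data were 10x Genomics 3′ single-cell libraries of scapular skin from Tianzhu white yaks about 2 years old, with 1 library each for anagen, catagen and telogen. Per the paper, single follicles were pulled from the digested skin before the cells were freed with trypsin. It names 3 yaks without tying an animal to a library. The paper describes skin taken in anagen and catagen and does not describe the telogen library. The protocol text of the catagen library speaks of anagen, so its stage rests on the title, the stage label and the paper. After cells with fewer than 200 genes had been left out, the libraries held 11987, 12062 and 14502 cells with medians of 5256, 3350 and 5583.5 UMIs per cell. No kept anagen cell had fewer than 2404 UMIs, whereas the catagen and telogen cells went down to 500. Pairs of libraries shared 40 to 49 cell barcodes. With 1 library per stage there was no replicate, so stage and library cannot be told apart, no test was made, and all intervals are 95% intervals of counting error only.

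In whole libraries, *KRT85* was highest in anagen and lowest in telogen, *KRT35* was about as high in anagen as in catagen, and *KAP11.1* was highest in catagen. Levels are given as CPM, the UMIs of a gene per 1000000 UMIs of the same cells, and are compared within a gene. *KRT85* had 949 CPM in anagen (943 to 956), 441 CPM in catagen (436 to 447) and 292 CPM in telogen (288 to 295), from 78611, 22741 and 30166 UMIs. Its intervals do not overlap between stages on this scale. *KRT35* had 40.3 CPM in anagen (38.9 to 41.7), 38.5 CPM in catagen (36.8 to 40.2) and 15.2 CPM in telogen (14.5 to 16.0). The anagen and catagen intervals of *KRT35* overlap, and telogen lies below both. *KAP11.1* had 5.22 CPM in anagen (4.74 to 5.73), 9.93 CPM in catagen (9.09 to 10.8) and 2.87 CPM in telogen (2.55 to 3.22), from only 432, 512 and 297 UMIs.

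**Figure D1:**
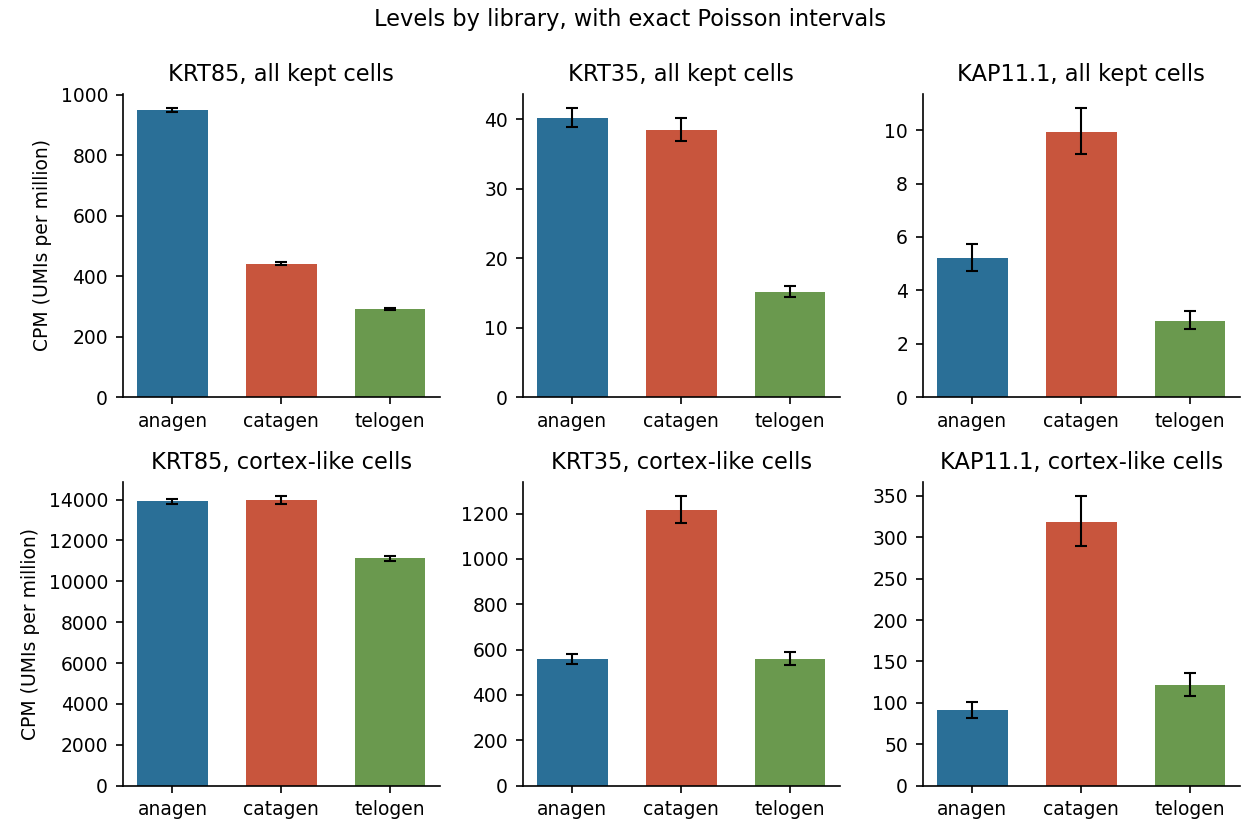
Levels of the 3 genes in CPM (y axis, starting at 0) in the anagen, catagen and telogen libraries, with exact Poisson 95% intervals; the upper row counts all kept cells and the lower row only the cortex-like cells. In all kept cells *KRT85* falls from 949 to 292 CPM, whereas in cortex-like cells it stays between 11122 and 13957 CPM and *KRT35* and *KAP11.1* are highest in catagen.

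Expressed as log2 ratios, *KRT85* fell by 1.11 from anagen to catagen (interval 1.08 to 1.13 lower) and by 1.70 from anagen to telogen. *KRT35* differed by -0.06 between catagen and anagen, with an interval from -0.15 to 0.02, and by -1.40 between telogen and anagen. Among the 6054 genes with at least 10 CPM in anagen or catagen, 3.19% were at least 2-fold lower in catagen and 3.67% at least 2-fold higher, after 1 CPM was added. Among the 5733 genes of the telogen and anagen comparison, 6.91% were at least 2-fold lower in telogen and 2.65% at least 2-fold higher. Of the 2 keratins, both of which passed this filter, *KRT85* was among the lower genes in both comparisons and *KRT35* in the second. *KAP11.1* stayed under 10 CPM in every library and was not counted. Its log2 ratio was 0.93 for catagen over anagen (0.74 to 1.12) and -0.86 for telogen over anagen (-1.08 to -0.64). The second of these depends on a single telogen cell, and without the cell with the most *KAP11.1* UMIs in each library it was -2.53. Size factors from medians of ratios moved every ratio by -0.25 for catagen over anagen and by 0.25 for telogen over anagen and changed no direction. For telogen over catagen the log2 ratios were -0.60 for *KRT85*, -1.34 for *KRT35* and -1.79 for *KAP11.1*, where 10.3% of 5971 genes were at least 2-fold lower and 3.75% at least 2-fold higher. With the size factors these ratios were -0.10, -0.84 and -1.29, so the gap of *KRT85* between catagen and telogen depends on the scaling.

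The UMIs of the 3 genes were concentrated in few cells, most of all for *KAP11.1*. At least 50% of the *KRT85* UMIs lay in 80 anagen, 27 catagen and 22 telogen cells. For *KRT35* this number was 126, 44 and 41 cells, and for *KAP11.1* it was 4, 5 and 1. The richest *KAP11.1* cells held 108 of 432 UMIs in anagen, 74 of 512 in catagen and 227 of 297 in telogen. The telogen cell had 74171 UMIs in all, of which 1844 were *KRT85* and 0 were *KRT35*, and held 76.4% of the *KAP11.1* of its library. The next telogen cell had 12 *KAP11.1* UMIs.

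Outside these cells, *KRT85* and *KRT35* UMIs were spread thinly over many kinds of cell. A *KRT85* UMI was found in 56.2% of anagen, 14.5% of catagen and 12.8% of telogen cells. In suprabasal epidermis-like cells, where a cortex keratin should be missing, the shares were 45.9%, 9.6% and 9.31% at medians of 8276, 6580 and 8451 UMIs per cell, and in endothelial-like cells they were 49.4%, 5.0% and 6.0% at medians of 3307, 1637 and 3501 UMIs. The share of anagen cells with a UMI therefore lay near that of cells that should lack the gene and is not read as expression. *KRT35* was seen in 8.73%, 2.62% and 2.1% of cells against 4.09%, 1.31% and 0.598% of suprabasal-like cells. *KAP11.1* was seen in 0.901%, 0.771% and 0.234% of cells against 0.512%, 0.611% and 0.0665% of suprabasal-like cells. To set a level above this background, each cell was thinned to 1500 UMIs and called positive when it held at least 2 UMIs and more than the 99th percentile of suprabasal-like cells. This left out 2263 catagen and 2932 telogen cells with fewer UMIs, and 0 anagen cells. The threshold came to 3 UMIs for *KRT85* in anagen and to 2 in all other cases. *KRT85* was then positive in 7.67% of anagen cells (7.2 to 8.16), 2.65% of catagen cells (2.34 to 2.99) and 1.63% of telogen cells (1.41 to 1.88). *KRT35* was positive in 0.984%, 0.980% and 0.372% of cells. *KAP11.1* was positive in 10 anagen, 10 catagen and 2 telogen cells. After thinning 46, 36 and 12 cells still held a *KAP11.1* UMI, most of them below the threshold of 2. Without thinning 34, 23 and 13 cells reached that threshold.

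Among the clusters of each library, all 3 genes were highest in the same cluster, by 12.9-fold or more over the next cluster of at least 20 cells. The members were kept out of the genes used for clustering and out of the naming. The cluster was called hair cortex-like from other genes, since 17 of 26 hair cortex markers in the joint anagen and catagen clustering and 16 of 26 in telogen were raised at least 1.5-fold, and *SELENBP1*, a selenium-binding protein gene of the hair shaft, was among its 10 leading genes in both. *VSIG8*, a membrane protein gene of the hair shaft, was among the 10 in the joint clustering. *CRYM*, another of the 26 markers, went the other way. Its log2 ratio of cortex-like cells over the rest was -0.35 in anagen, -1.30 in catagen and -0.20 in telogen. No separate markers were used for other layers of the hair shaft, so the name does not tell the cortex from them. Cortex-like cells numbered 527 in anagen, 224 in catagen and 163 in telogen, or 4.40%, 1.86% and 1.12% of kept cells, with medians of 5867, 5497 and 11078 UMIs. They held 73.8%, 85.6% and 86.2% of the *KRT85* UMIs of their library, 69.7%, 85.5% and 83.2% of the *KRT35* UMIs and 88.0%, 86.7% and 95.6% of the *KAP11.1* UMIs.

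**Figure D2:**
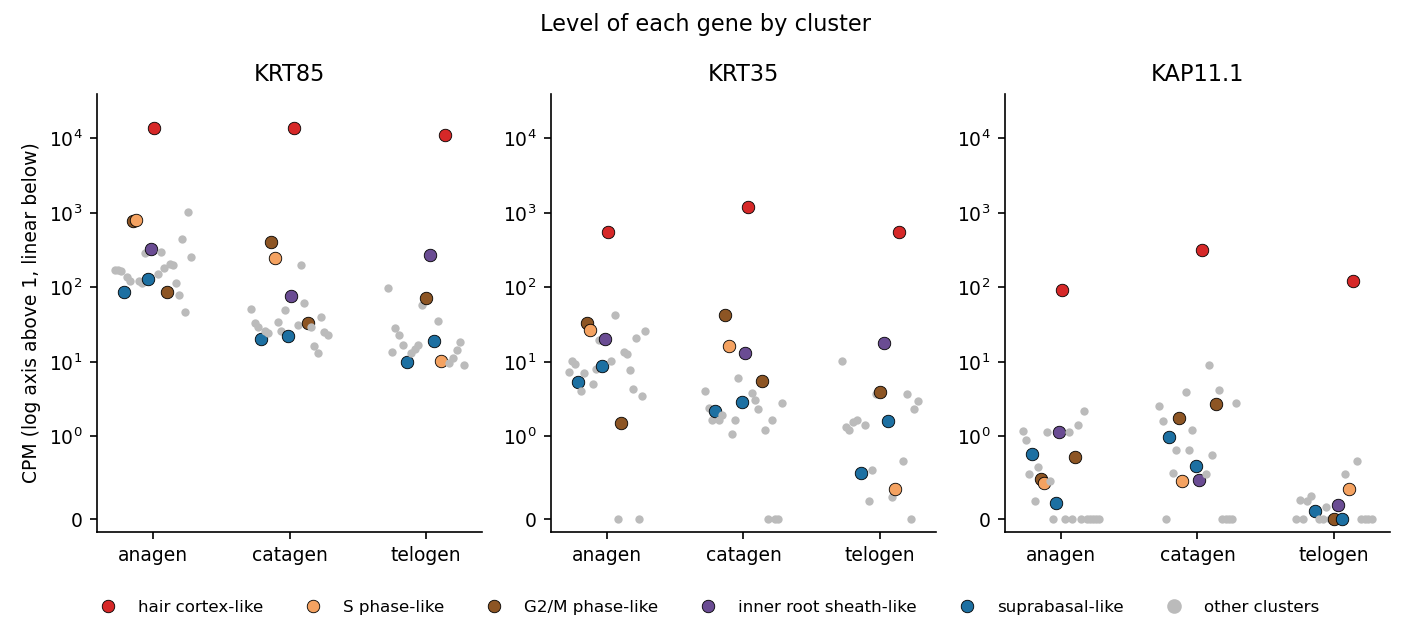
Level of each gene in CPM (y axis, logarithmic above 1 and linear below) in every cluster of at least 20 cells, by library; colours mark the named clusters and grey points the others. The hair cortex-like cluster stands at least 12.9-fold above the next cluster for each gene in each library, and the S phase-like and 1 of the G2/M phase-like clusters of anagen and catagen lie above the suprabasal-like clusters for *KRT85* and *KRT35*.

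Within cortex-like cells the stage pattern was another one than in whole libraries. *KRT85* had 13908 CPM in anagen (13795 to 14022), 13957 CPM in catagen (13761 to 14154) and 11122 CPM in telogen (10987 to 11258). Its log2 ratio was 0.01 for catagen over anagen (-0.02 to 0.03) and -0.32 for telogen over anagen (-0.34 to -0.30), a smaller gap than between whole libraries. *KRT35* had 557 CPM in anagen (535 to 580), 1216 CPM in catagen (1159 to 1275) and 560.3 CPM in telogen (530.4 to 592), and was 2.18-fold higher in catagen than in anagen. *KAP11.1* had 91.2 CPM in anagen (82.2 to 101), 318 CPM in catagen (289 to 349) and 121 CPM in telogen (108 to 136), and was 3.49-fold higher in catagen than in anagen. Without the cell that held the most, *KAP11.1* came to 65.6, 268 and 25.2 CPM, so catagen stayed highest but anagen then lay above telogen. With clusters drawn at the lower resolution of 0.4 the telogen cluster where the genes were highest had 3315 CPM of *KRT85*, 169.8 CPM of *KRT35* and 34.2 CPM of *KAP11.1*. *KRT85* then had 15156 CPM in anagen and 14725 CPM in catagen, so the smaller telogen gap of *KRT85* depends on the resolution.

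Cell by cell, *KRT85* spread over a wide range and *KAP11.1* was missing from most cortex-like cells. The median was 72.3 *KRT85* UMIs per 10000 in anagen, 58.0 in catagen and 64.1 in telogen, with quartiles of 37.0 and 142.8, 25.9 and 133, and 26.4 and 136. The highest cells reached 866, 680.1 and 473, that is 8.66%, 6.80% and 4.73% of all UMIs of the cell. *KRT35* had medians of 3.84, 10.6 and 5.70 UMIs per 10000 and was seen in 73.8%, 76.3% and 86.5% of cortex-like cells. *KAP11.1* was seen in 11%, 13.4% and 12.9% of them, which is 58, 30 and 21 cells. These shares are not at equal depth, since the telogen cells had the most UMIs, and after thinning to 1500 UMIs only 10, 10 and 2 cells were positive, all of them cortex-like.

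Both keratins were also above the suprabasal-like level in the S phase-like cluster and the larger of 2 G2/M phase-like clusters of the anagen and catagen libraries, where *KAP11.1* had few UMIs. The S phase-like cluster of the joint clustering, which was led by replication genes and by *DCN*, *ICA1* and *FABP7*, had 799 CPM of *KRT85* in anagen, 7.79-fold (7.33 to 8.29) above the 103 CPM of suprabasal-like cells, and 250.0 CPM in catagen, 11.9-fold (10.0 to 14.2) above 21.0 CPM. For *KRT35* the same cells had 26.9 CPM in anagen, 4.05-fold (3.07 to 5.36) above suprabasal-like cells, and 16.3 CPM in catagen, 6.64-fold (3.73 to 12.1) above them. *KAP11.1* had 2 UMIs in the anagen and 1 UMI in the catagen cells of this cluster, with ratios of 0.77 (0.08 to 3.87) and 0.54 (0.01 to 4.22). The S phase-like cells of these libraries therefore carried both keratins above the level of suprabasal-like cells. No excess of *KAP11.1* was detectable in them at this depth. Endothelial-like cells of anagen, which should also lack these genes, had more than suprabasal-like cells. They had 439 CPM of *KRT85* (371 to 517) and 21.1 CPM of *KRT35* (8.47 to 43.4). In anagen the S phase-like cells lay above this for *KRT85*, but their *KRT35* level lay within that interval. Endothelial-like cells of catagen, 40 cells with a median of 1637 UMIs, had 2 *KRT85* and 0 *KRT35* UMIs. By the exact Poisson interval this allows up to 91.1 CPM of *KRT85* and 46.5 CPM of *KRT35*. The 16.3 CPM of *KRT35* in catagen S phase-like cells lay under that limit. Suprabasal-like cells were a low reference for *KRT85*. Basal-like cells had 151 CPM of it in anagen and 32.4 CPM in catagen, and the unnamed clusters together 170 and 37.7 CPM.

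Of the 2 G2/M phase-like clusters, the larger one had 1038 anagen and 365 catagen cells. It had 772 and 408 CPM of *KRT85* and 33.7 and 42.1 CPM of *KRT35*. Its anagen *KRT35* level also lay within the interval of anagen endothelial-like cells (8.47 to 43.4). Its catagen *KRT35* level lay under the upper limit of catagen endothelial-like cells (46.5). The other, with 301 and 114 cells, stayed at 87.1 and 32.8 CPM of *KRT85* and 1.5 and 5.46 CPM of *KRT35*. Suprabasal-like cells had 103 and 21.0 CPM of *KRT85* and 6.63 and 2.45 CPM of *KRT35*, so in anagen the smaller cluster lay below them for both keratins, and in catagen its *KRT35* rested on 4 UMIs of 1 cell. Over both clusters *KAP11.1* had 6 UMIs in anagen and 7 in catagen, or 0.97-fold (0.28 to 3.19) and 2.29-fold (0.69 to 7.65) of the suprabasal-like level. The telogen library was clustered alone and had 1 G2/M phase-like cluster. The S phase-like cells had 28 *KRT85* UMIs and 10.2 CPM, 0.83-fold (0.54 to 1.24) of the suprabasal-like level. The G2/M phase-like cells had 72.0 CPM, but 363 of their 641 *KRT85* UMIs were in 1 cell. Without it the level was 31.3 CPM, against 12.3 CPM in suprabasal-like cells. The *KRT35* level of the G2/M phase-like cells was 3.93 CPM, 4.73-fold (2.40 to 10.0) of the suprabasal-like level, against 1.69 CPM in the unnamed clusters. The G2/M phase-like cells had 0 *KAP11.1* UMIs, which allows up to 0.337 CPM by a floor of 3 counts and up to 0.414 CPM by the exact Poisson interval.

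Inner root sheath-like cells, whose sheath surrounds the growing shaft, had 327, 75.6 and 275 CPM of *KRT85* and 20.2, 13.2 and 17.7 CPM of *KRT35* in anagen, catagen and telogen. In telogen this was 22.3-fold and 21.2-fold the suprabasal-like level, in 141 and 31 of 386 cells. The anagen levels were not above those of anagen endothelial-like cells, at 439 and 21.1 CPM. *KAP11.1* had 6, 1 and 1 UMIs in the inner root sheath-like cells. An unnamed anagen cluster of 49 cells with *CYP4X1* and *ABCC11* among its leading genes had 1040 CPM of *KRT85*, the next level after the cortex-like cells, but 488 of its 604 UMIs came from 1 cell. The ratio of *KRT85* to *KRT35* UMIs was 25 (23.9 to 26.0) in anagen cortex-like cells and 15.5 (12.5 to 19.3) in anagen suprabasal-like cells. In catagen it was 11.5 (10.9 to 12.1) and 8.55 (5.37 to 14.4), and in telogen 19.8 (18.8 to 21.0) and 14.8 (8.28 to 29.3). The anagen intervals do not overlap and those of the other libraries do. Whether the low counts outside the cortex-like cells came from free RNA was not tested.

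Read per cell, nearly all positive cells held *KRT85*. *KRT35* and *KAP11.1* were each found in a part of these cells, mostly apart from each other after thinning. Without thinning, 21 of 34 *KAP11.1*-positive cells in anagen, 13 of 23 in catagen and 12 of 13 in telogen were also positive for *KRT35*. The separation was therefore not seen at full depth. Of the 922 anagen cells positive for any of the 3 after thinning, 794 held *KRT85* alone, 115 held *KRT85* with *KRT35* and 10 held *KRT85* with *KAP11.1*, and 3 held *KRT35* alone. The corresponding numbers were 157, 93, 9 and 2 of 262 catagen cells and 145, 42, 2 and 1 of 190 telogen cells. Only 1 cell, in catagen, was positive for all 3, and 0 cells held *KAP11.1* without *KRT85*. An order of all 3 genes was therefore not found, only that at these thresholds *KRT85* was present in nearly all cells positive for either of the others. Of the cells with *KRT85* alone, 44.0% in anagen, 47.1% in catagen and 67.6% in telogen were cortex-like, against 90.4%, 93.5% and 95.2% of those with *KRT85* and *KRT35* and all of those with *KRT85* and *KAP11.1*. When 1 UMI after thinning was enough, 10 of 46 anagen, 22 of 36 catagen and 4 of 12 telogen cells with *KAP11.1* held no *KRT85*.

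Where 2 genes disagreed in a cell, *KRT85* was nearly always the one present. In the pair of *KRT85* and *KRT35*, 99.6% of 807 discordant anagen cells (98.9 to 99.9), 98.8% of 168 catagen cells (95.8 to 99.9) and 99.3% of 148 telogen cells (96.3 to 100) held *KRT85*. In the pair of *KRT85* and *KAP11.1*, this was so for all 909, 250 and 187 discordant cells. In the pair of *KRT35* and *KAP11.1*, *KRT35* was the gene present in 92.2% of 128 anagen (86.1 to 96.2), 91.3% of 104 catagen (84.2 to 96.0) and 95.6% of 45 telogen cells (84.9 to 99.5). A gene with more UMIs is found alone more often. In every library *KRT85* had many more UMIs than *KRT35*, and *KRT35* more than *KAP11.1*. Level alone could therefore give these shares, and no order of the genes is read from them. For the last pair the share also depended on the threshold: at 5 or more UMIs it was 66.7% of 6 anagen and 71.4% of 21 catagen cells, and at 10 or more it was 0% of 3 catagen cells. Without thinning, and with the threshold for *KRT85* at 9 UMIs in anagen, 89.1% of discordant anagen cells held *KRT85* and not *KRT35*, and 21 anagen, 13 catagen and 12 telogen cells were positive for all 3.

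Ordering the cortex-like cells of each library by *KRT85* per UMI and splitting them into 4 groups of about equal size, a split added after the data had been seen, showed how the other members moved with it. From the lowest to the highest group *KRT85* went from 2090 to 29203 CPM in anagen, from 1501 to 27991 CPM in catagen and from 1737 to 26887 CPM in telogen, which the ordering itself fixes. *KRT35* already had 181, 309.6 and 203 CPM in the lowest group of anagen, catagen and telogen and had 679, 1478 and 865 CPM in group 3. In the highest group it reached 783 CPM in anagen (738 to 831), 1667 CPM in catagen and only 660.5 CPM in telogen. *KAP11.1* was at 0 in groups 1 and 2 of telogen, at 0 and 4.22 CPM in anagen, and at 38.7 and 3.36 CPM in catagen. In the highest group it had 210.3, 802 and 426 CPM and was seen in 32.8%, 41.1% and 45.0% of cells. Most *KAP11.1* cells were therefore among the cells with the most *KRT85*. Of the 280 *KAP11.1* UMIs in the highest telogen group, 227 were in 1 cell, so its 426 CPM rest mainly on that cell. The median depth of the highest group was 7828, 9665 and 13062 UMIs, above that of the lowest with 4961, 3316 and 10152.

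**Figure D3:**
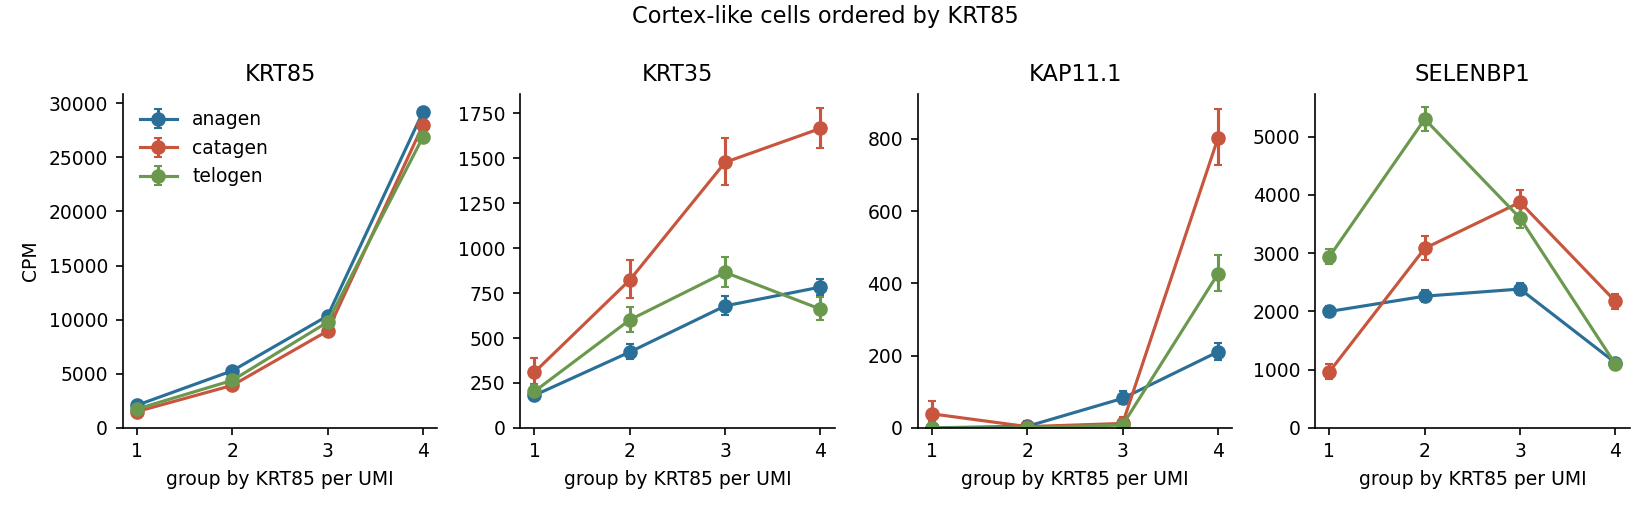
Levels in CPM (y axes, starting at 0, with exact Poisson 95% intervals) of the 3 genes and of *SELENBP1* in cortex-like cells split into 4 groups from the lowest (1) to the highest (4) *KRT85* per UMI. *KRT35* climbs over the first 3 groups in every library, whereas *KAP11.1* is concentrated in the highest one, where *SELENBP1* is lower than in group 3. In telogen 227 of the 280 *KAP11.1* UMIs of the highest group were in 1 cell.

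*KRT35* and *KAP11.1* showed little relation to each other in cortex-like cells. Over these cells, the Spearman coefficient of UMIs per cell total was 0.49, 0.47 and 0.47 for *KRT85* with *KRT35* and 0.42, 0.43 and 0.52 for *KRT85* with *KAP11.1* in anagen, catagen and telogen, but 0.06, -0.01 and 0.01 for *KRT35* with *KAP11.1*. Each coefficient is over cells of 1 library, 527, 224 and 163 of them, and describes that library. In the anagen cell with the most *KAP11.1*, 1695 *KRT85* UMIs stood beside 1 *KRT35* UMI, and in that of catagen 836 beside 0. In the anagen cell with the most *KRT35*, 107 UMIs, there were 663 *KRT85* and 2 *KAP11.1* UMIs. The catagen cell with the most *KRT35*, 47 UMIs, had 780 *KRT85* and 24 *KAP11.1* UMIs, so both genes were high in it. The telogen cell with the most *KRT35*, 43 UMIs, had 76 *KRT85* and 0 *KAP11.1* UMIs. Of the cells with 5 or more *KAP11.1* UMIs, 10 of 14 in anagen, 9 of 14 in catagen and 4 of 5 in telogen also held *KRT35*, so the genes overlapped in most of these cells. The median *KRT35* level in these cells was 1.98, 2.64 and 3.84 UMIs per 10000, against 3.79, 10.4 and 5.61 in cells with 0 *KAP11.1* UMIs. In the 44, 16 and 16 cells with 1 to 4 *KAP11.1* UMIs it was higher than in either, at 5.87, 15.9 and 7.24. *KRT35* thus had no single direction over the 3 groups, whose median depths rose from 5618, 4900 and 10219 UMIs at 0 to 6118, 9434 and 15459 at 1 to 4 and 14061, 11355 and 23450 at 5 or more.

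**Figure D4:**
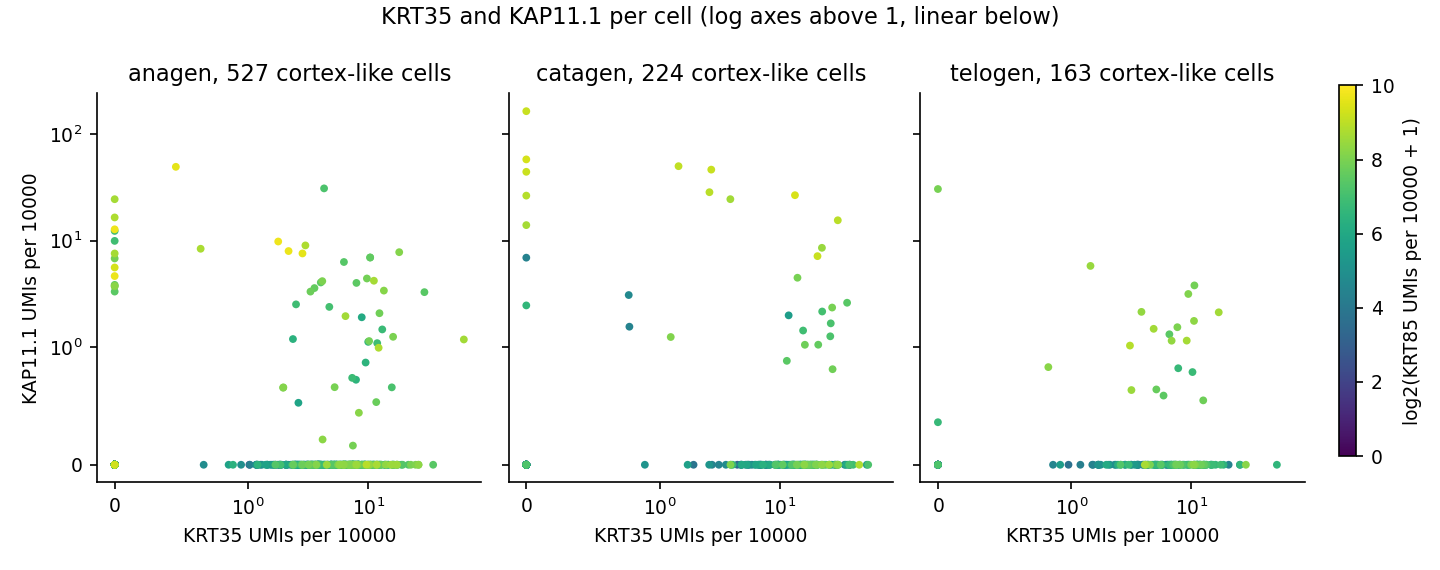
Each point is 1 cortex-like cell, with *KRT35* UMIs per 10000 on the x axis and *KAP11.1* UMIs per 10000 on the y axis (both logarithmic above 1 and linear below) and colour for log2 of *KRT85* UMIs per 10000 plus 1. Most cells lie on the line of 0 *KAP11.1*, and the cell with the most *KAP11.1* UMIs of each library has at most 1 *KRT35* UMI.

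Too few cells were positive for all 3 genes after thinning to compare other genes between early and late cells as designed, with 0 such cells in anagen and telogen and 1 in catagen. Instead, and chosen after the data had been seen, cortex-like cells with at least 2 *KAP11.1* UMIs (32, 20 and 13 cells in anagen, catagen and telogen) were set against those with 0 (469, 194 and 142 cells). The former were deeper, with medians of 12508, 12090 and 20775 UMIs. *KRT85* was higher in the cells with *KAP11.1* by log2 1.96, 1.90 and 2.00, at 38457, 34285 and 29069 CPM against 9853, 9211 and 7264 CPM. *KRT35* had no common direction, with 739, 1133 and 487 CPM in cells with *KAP11.1* against 513, 1203 and 573 CPM without. In anagen 107 of the 376 *KRT35* UMIs in cells with *KAP11.1* were in 1 cell. When the anagen cells were grouped by thinned counts, the log2 ratio of *KRT35* turned from 0.53 to -0.52. Over all genes with at least 10 CPM in either group, 8.22%, 11.3% and 8.50% were at least 2-fold higher with *KAP11.1* and 20.6%, 30.5% and 23.7% at least 2-fold lower.

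Among the listed genes, the transcription factor *FOXN1*, which is needed for hair keratin expression, was higher with *KAP11.1* in all 3 libraries, at 555, 600 and 457 CPM against 85.4, 76.6 and 81.1 CPM. The log2 ratios were 2.70 (2.46 to 2.94), 2.97 (2.57 to 3.38) and 2.49 (2.16 to 2.83). In telogen 86 of the 149 *FOXN1* UMIs with *KAP11.1* were in 1 cell. Without the cell with the most *KAP11.1* its telogen level was 250 CPM and the log2 ratio 1.62. *DSG4*, the desmosomal cadherin of the hair shaft, was higher by log2 2.25, 1.66 and 1.66. *GPRC5D*, a receptor of unknown ligand that is found in the hair shaft, had 230.1, 281 and 374 CPM with *KAP11.1* and 6, 1 and 0 UMIs in all cells without. Its telogen level rested mainly on 1 cell with 108 of its UMIs, and was 55.5 CPM without the cell with the most *KAP11.1*. *FOXN1* and *DSG4* kept their direction in each library when cells were grouped by thinned counts or when the cell with the most *KAP11.1* was left out. *GPRC5D* had 1.77, 0.92 and 0 CPM in the cells without *KAP11.1*. It passed the level filter only through the cells with *KAP11.1*, which fixed its direction, so this is not read as a result. *VSIG8* was also higher in each library, by log2 3.44, 3.39 and 2.20, but 208 of the 243 catagen UMIs were in 1 cell. Grouped by thinned counts, its catagen ratio was 0.05. In telogen its ratio turned to -1.05 without the cell with the most *KAP11.1*. Of the 6 listed hair shaft genes, 6, 5 and 6 passed the level filter. Of these, 3, 4 and 3, counting *GPRC5D*, were at least 2-fold higher with *KAP11.1* and 1, 1 and 3 lower. Over all genes 8.22%, 11.3% and 8.50% were higher and 20.6%, 30.5% and 23.7% lower. *S100A3* had log2 ratios of -0.13, 3.82 and -1.76, with 53 of its 63 catagen UMIs in 1 cell. *CRYM* had -0.50, -1.16 and, in telogen, 0 UMIs with *KAP11.1*.

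Other listed genes were lower in the cells with *KAP11.1*. *SELENBP1* had 838, 558 and 469 CPM with *KAP11.1* against 2039.9, 3020 and 3712 CPM without. The Notch ligand gene *JAG1* had 70.8, 78.6 and 30.7 CPM against 249, 467 and 205 CPM, and the Wnt ligand gene *WNT10A* had 61.0, 33.1 and 24.5 CPM against 117, 119 and 126 CPM. All 3 kept this direction in every library under both other groupings. *HOXC13* and *LEF1*, factors that act on hair keratin genes in the matrix and cortex, had log2 ratios of -0.51 to 0.26 and intervals that include 0 in every library. The G2/M phase list of 7 genes had 112, 29.0 and 30.7 CPM with *KAP11.1* against 241, 207 and 156 CPM without, a log2 ratio of 1.10 (0.71 to 1.52), 2.84 (1.77 to 4.17) and 2.35 (1.45 to 3.43) for cells without over cells with. *CENPF* alone gave 569 of 815, 162 of 224 and 202 of 295 UMIs of this list in the cells without, so the list rests mainly on *CENPF*. In anagen *TOP2A*, *BIRC5* and *UBE2C* had 37.4, 5.90 and 3.93 CPM with *KAP11.1* against 21.9, 2.96 and 2.66 CPM without, with intervals that include 0. With *KAP11.1*, 17 of 19 *TOP2A* UMIs were in 1 cell, and so were all 3 of *BIRC5* and both of *UBE2C*. *HMGB2*, *CDC20* and *CDK1* had 16, 1 and 0 UMIs with *KAP11.1* there. No direction is read from these genes. When cells were grouped by thinned counts, the ratio of the G2/M phase list was -0.04 (-0.42 to 0.36) in anagen and 1.38 (0.44 to 2.53) in telogen. The S phase list of 6 genes had 17.7, 20.7 and 18.4 CPM against 52.9, 39.7 and 39.2 CPM, from 9, 5 and 6 UMIs in the cells with *KAP11.1*, and only the anagen interval lay clear of 0. Grouped by thinned counts, the anagen ratio of the S phase list was 0.86 (-0.22 to 2.19), so no interval was then clear of 0. Of the 6 listed inner root sheath genes, 5 in anagen, 4 in catagen and 5 in telogen passed the level filter. Of these, 5, 2 and 5 were at least 2-fold lower with *KAP11.1* and 0, 1 and 0 higher. Over all genes 20.6%, 30.5% and 23.7% were lower. All 5 in telogen, and *KRT25*, *KRT28* and *KRT73* in anagen, had under 10 CPM with *KAP11.1*. These passed only through the cells without, which fixed their direction, so the count is not read as a result.

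**Figure D5:**
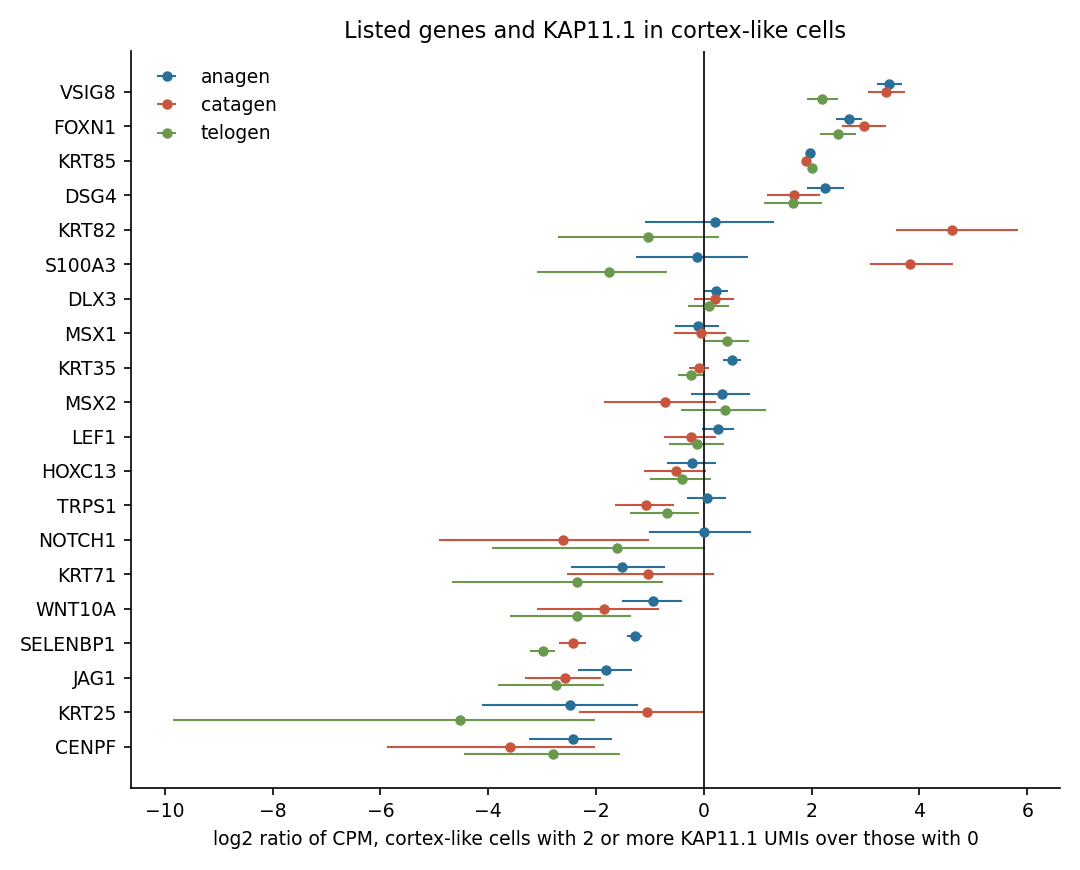
Log2 ratio of CPM (x axis, with exact conditional 95% intervals) in cortex-like cells with at least 2 *KAP11.1* UMIs over those with 0, for the 20 members and listed genes with at least 50 UMIs over both groups and at least 1 in each group in every library. *FOXN1*, *VSIG8*, *DSG4* and *KRT85* lie to the right of 0 in all 3 libraries and *SELENBP1*, *JAG1*, *WNT10A* and *CENPF* to the left. The place of *VSIG8* rests on few cells. Its ratio was 0.05 in catagen when grouped by thinned counts, and -1.05 in telogen without the cell with the most *KAP11.1*.

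Other genes of hair keratins and keratin-associated proteins were sparse beside the members. Of 16 listed hair keratins 7 had a row, and their UMIs summed to 612 in anagen, 475 in catagen and 461 in telogen. *KRT31*, *KRT33A*, *KRT81*, *KRT83* and *KRT86* are among those without one, and whether reads of such close relatives were counted to *KRT85* or *KRT35* cannot be told from the counts. *KRT36*, a type I keratin, had 87 of 113, 48 of 55 and 189 of 200 UMIs in cortex-like cells, and *KRT34* had 148 of 187, 36 of 74 and 15 of 29. *KRT82* had 59 of 75, 60 of 74 and 64 of 71, *KRT84* had 65 of 103, 114 of 142 and 62 of 72, and *KRT32* had 30 of 36, 34 of 44 and 14 of 24. Smaller shares were found for *KRT40*, with 9 of 80, 19 of 76 and 6 of 55, and for *KRT39*, with 7 of 18, 4 of 10 and 2 of 10. In CPM both were still higher in cortex-like cells than in the rest. The log2 ratios were 1.26, 3.58 and 2.40 for *KRT40* and 3.59, 4.58 and 3.43 for *KRT39*. The 11 other keratin-associated protein genes summed to 274, 162 and 94 UMIs. *KAP3-1* had 95 of 119, 25 of 66 and 32 of 37 UMIs in cortex-like cells, and *KAP13.1* had 24 of 27, 19 of 31 and 32 of 34. Of the 11, 5 in anagen, 6 in catagen and 3 in telogen passed the level filter of the comparison by *KAP11.1*. All of these were at least 2-fold higher in the cells with *KAP11.1*. Each had under 10 CPM in the cells without, so it passed only through the cells with *KAP11.1*. The filter therefore fixed the direction, which is not read as a result. The levels also rest on few cells. In the cells with *KAP11.1*, 79 of the 88 anagen *KAP3-1* UMIs and all 32 telogen *KAP13.1* UMIs came from 1 cell each.

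The genes whose pattern over cells was most like that of the members were sought among 10426 genes with at least 50 UMIs in each library, by the smallest Pearson coefficient over the 3 libraries of ln(1 + UMIs per 10000). *HEPHL1*, a gene of the multicopper ferroxidase family, came first for both keratins, with 0.55, 0.55 and 0.51 for *KRT85* and 0.56, 0.65 and 0.61 for *KRT35* in anagen, catagen and telogen. Between *KRT85* and *KRT35* themselves the coefficient was 0.54, 0.57 and 0.56. *LEF1* was among the 5 genes most like each keratin, with at least 0.36 for *KRT85* and 0.34 for *KRT35*. *FABP7*, a fatty acid binding protein gene, was among those of *KRT85* with at least 0.37, and *HOXC13* among those of *KRT35* with at least 0.34. For *KAP11.1* the order was another one. *GPRC5D* came first, with 0.51, 0.48 and 0.46, and *LY6G6D* was also among its 5, with 0.40, 0.42 and 0.36, while *KAP11.1* reached 0.21, 0.22 and 0.21 with *KRT85* and 0.13, 0.12 and 0.15 with *KRT35*. The remaining places were held by genes without a symbol. All cells of a library enter these coefficients, which share its depth and its low counts outside the cortex-like cells, and most of their values are 0.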

How the data were processed

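The authors deposited whole-number UMI counts per gene and cell, as Cell Ranger wrote them, with no normalization. Per the file headers, anagen was run with Cell Ranger 4.0.0, catagen with version 3.1.0 and telogen with version 6.0.2, whereas the submitters' processing notes list 2.1.1 throughout. The genome build is not given in the sources used here. Kept cells had at least 200 genes, and libraries held 51537357 to 103430933 UMIs in kept cells. No doublet caller was run.

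Anagen and catagen cells were integrated and clustered, and telogen cells clustered alone, with Seurat 5.3.0 in R 4.3.3 (2000 variable genes without the members, 30 components, resolution 0.8). A name required 3 or more markers raised at least 1.5-fold and 1 among the 10 leading genes, a rule set after the clusters had been seen. Counts were summed with Python 3.11.15 and scipy 1.17.1, with exact Poisson, Clopper-Pearson and conditional binomial intervals. The scripts were tested on simulated data. Named genes were the members, the listed genes and the 5 genes most like each member. The members and lists were chosen with earlier results of these data known. No sequence of these genes was used here.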

Additional observations from a re-analysis of the deposited data

How the results depend on the processing

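The library ratios of catagen and telogen over anagen kept their direction under the alternatives run, except for *KRT35* in catagen. Its main interval includes 0, but alternatives gave intervals clear of 0 on both sides. It was -0.31 (-0.41 to -0.21) without the 5% of cells with the most UMIs. At 1000 genes per cell or more it was 0.23 (0.15 to 0.32). For telogen over catagen only the size factors were varied, and *KRT85* moved from -0.60 to -0.10. In the order *KRT85*, *KRT35*, *KAP11.1*, the log2 ratios with median-of-ratios size factors were -1.36, -0.32 and 0.68 for catagen over anagen and -1.46, -1.16 and -0.61 for telogen over anagen. Leaving out the 5% of cells with the most UMIs gave -1.56 and -0.31 for the keratins in catagen, and -2.11, -1.49 and -2.68 in telogen. Averaging CPM over cells, with equal weights, gave -1.55 and -0.46, and -2.28, -1.68 and -2.52. At 1000 genes per cell or more, *KRT85* had -0.83 and -1.65 and *KRT35* 0.23 in catagen, and with at least 2404 UMIs per cell these were -0.99, -1.66 and 0.019. Without the richest cell of each library (added later), *KAP11.1* had 1.12 in catagen and -2.53 in telogen, and *KRT85* -1.74 in telogen. The share of discordant cells with *KRT85* and not *KRT35* was 97.6% in anagen and 100% in telogen when thinned to 3000 UMIs, 89.1% in anagen without thinning, 96.6%, 95.2% and 95.5% at 1 UMI or more, 100% in anagen and telogen at 5 or more, 100% in all 3 libraries at 10 or more, and 100% in anagen and telogen among cortex-like cells (added later). For *KRT85* and not *KAP11.1* it moved to 97.2% in catagen at 1 UMI or more. For *KRT35* and not *KAP11.1* it was 97% in anagen without thinning and 96.4% among cortex-like cells, 66.7%, 71.4% and 100% at 5 or more and 100%, 0% and 100% at 10 or more, from 1 to 21 cells. Cycle lists between cells with and without *KAP11.1* gave no value as designed, with too few cells positive for all 3, and under the added grouping by thinned counts the G2/M ratio was -0.042 in anagen and 1.38 in telogen, and the anagen S phase ratio 0.86, with an interval that includes 0. Of 9 results taken from the clusters, 8 moved at resolution 0.4 and 3 at resolution 1.2. All 9 stayed the same with each library clustered alone. They also did with the listed hair keratins and keratin-associated proteins left out of the clustering. The causes were not tested. No paired analysis was possible because each stage has 1 library, and leaving out a replicate was not possible for the same reason. Depth limited *KAP11.1* most, with 297 to 512 UMIs per library.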
